A study of Mus musculus with 8 samples.

Results

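Helper T cells that lack the transcription factor T-bet but keep STAT6 were compared here with wild-type cells. Genes that changed in this mutant alone were separated from those that also changed without STAT6. The cells were CD44+ CD4+ T cells, which have met antigen before, isolated from lymph nodes that drain the skin of BALB/cAJcl mice, and all were treated with PMA and ionomycin for 2 h. This drug pair bypasses the T cell receptor and brings out the cytokine genes that a cell is poised to use. The genotypes were wild type (WT), T-bet-/- (T-bet-null), STAT6-/- (STAT6-null) and T-bet-/- STAT6-/- (double-null), with 2 libraries each. The comparison takes 4 of the 8 libraries, those of WT and T-bet-null mice, and the other 4 serve to sort its changes. It covers the 10281 of 11841 genes that reached at least 1 FPKM, a count of fragments scaled to transcript length and library size, in at least 2 of the 8 libraries. A germline null affects every cell of the mouse, so the labels do not separate loss in the T cell from loss in the cells around it. Age, sex and litter are not given in the labels, nor whether the pair of libraries of 1 genotype came from different animals. The p-values thus measure the spread among these libraries alone, and that spread may be technical.

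T-bet, encoded by Tbx21, is the factor that directs CD4 T cells to the Th1 fate, in which they make interferon gamma (IFN-γ) and answer to it. It binds T-box sequences at genes such as Ifng and Cxcr3 and restrains GATA3, the factor of Th2 cells. STAT6 transmits IL-4 and IL-13 signals and raises Gata3, so that Th2 cells sustain their own fate and make IL-4, IL-5 and IL-13. Cells without T-bet but with STAT6 thus lack the Th1 factor and keep the IL-4 signal.

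The targeted genes were read first. Tbx21 stood at 30.8 and 31.6 FPKM in WT, 1.44 and 1.54 in T-bet-null, 102 and 92.1 in STAT6-null, and 2.49 and 2.09 in double-null libraries. All 4 libraries labelled as lacking T-bet thus lay below the other 4, and a low level of transcript was left in each. The deleted part of the gene is not stated in the labels. Stat6 was 89.9 and 90.9 FPKM in WT and 88.8 and 89.8 in T-bet-null libraries, a difference of -0.02 on the log2 scale (adjusted p = 0.819). It was lower but still present in the STAT6-null libraries, at 31.6 and 29.0 FPKM, and the double-null libraries, at 29.6 and 26.9.

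Across the whole series, relative depth read from the steps of low values ran from 0.856 to 1.04, a ratio of 1.21, and replicate SDs of log2 values at 16 to 64 FPKM ran from 0.0749 in T-bet-null to 0.108 in double-null cells. Correlations of log2 values (Pearson r across the tested genes, which are not independent) were 0.996 to 0.998 within genotypes, 0.983 to 0.989 between mutants and 0.934 to 0.954 between WT and mutant libraries, so the WT libraries stood apart. All 13 CD4 T cell markers were tested, with summed levels of 4322 to 4392 FPKM in WT and 3870 to 3935 in T-bet-null cells. At an adjusted p under 0.05 (limma), 2 of the 13 were higher and 8 lower in T-bet-null than in WT cells, median -0.23. Of all tested genes, 34.2% were higher and 36.3% lower. Of the 8 B cell markers 3 were tested, with sums of 4.80 to 7.57 FPKM in WT and 2.47 to 2.69 in T-bet-null cells, and Pax5 and Ighm were not analysed here. Of the 8 myeloid markers 6 were tested, with sums of 185 to 190 and 102 to 107 FPKM across the genotypes in that order, and Csf1r and Itgam were not analysed here. None of the 4 NK cell markers was analysed. The table lists a gene only where it exceeded 0.1 FPKM in all 8 libraries.

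T-bet-null cells differed from WT at most genes. With limma, 3518 of the 10281 genes were higher (34.2%) and 3737 lower (36.3%) at an adjusted p under 0.05, and the median difference of all genes was -0.02 on the log2(FPKM + 1) scale. At least 2-fold changes were fewer, with 436 genes higher (4.24%) and 420 lower (4.09%). All differences below are on this log2 scale, which understates the change of genes near or under 1 FPKM. In a bulk sample, fewer cells that use a gene and less RNA per cell cannot be told apart.

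The 7255 called genes (70.6%) were sorted by the other genotypes, of which STAT6-null cells differed from WT at 71.0% and double-null cells at 73.0% of the genes. Shared with both other mutants were 5575 genes, 76.8% of the calls: in each mutant, 2780 were above WT (27.0% of the genes tested) and 2795 below (27.2%). At least 2-fold in each were 278 higher (2.7%) and 264 lower (2.57%). These 3 comparisons use the same WT libraries, so this count describes how the genes were sorted and supports nothing by itself. Apart from all 3 other genotypes, with T-bet-null cells differing in 1 direction from WT, STAT6-null and double-null cells, were 647 genes, 8.92% of the calls: 364 higher (3.54%) and 283 lower (2.75%). Of these, 203 genes were called in neither other mutant against WT, 118 higher (1.15%) and 85 lower (0.827%). These, which also differed from both other mutants, are the genes described below as seen to change only in T-bet-null cells. A gene can be both shared and apart, where T-bet-null cells went further than the other mutants, and 205 genes were (142 higher, 1.38%, and 63 lower, 0.613%). Outside these classes, and not called in the same direction with T-bet loss in cells without STAT6 (a class given below), were 1017 called genes. Of these, 437 were higher (4.25%) and 580 lower (5.64%).

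The count of genes apart from all others rests on each library that carries it. It was 343 without T-bet-null replicate 1 and 264 without replicate 2, 424 without STAT6-null replicate 1 and 423 without replicate 2. The count seen only in T-bet-null cells was 117 and 96 without T-bet-null replicate 1 and 2, and 129 without STAT6-null replicate 2. The shared count moved less, between 4875 and 5600 when each of the 8 libraries was left out in turn.

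Cytokines of type 2 immunity led the genes that were highest in T-bet-null cells. Il5, which supports eosinophils (chromosome 11, 53720794-53725103), stood at 32.1 and 21.0 FPKM in WT, 272 and 286 in T-bet-null, 31.7 and 23.4 in STAT6-null and 54.0 and 54.6 in double-null libraries. The T-bet-null pair lay above the other 6 libraries, by 3.37 ± 0.18 (SE) over WT (adjusted p = 9.04e-07), 3.31 over STAT6-null and 2.34 over double-null cells. Il31, a cytokine of itch in skin (chromosome 5, 123480152-123482623), read 1.28 and 1.51 FPKM in WT, 12.6 and 12.2 in T-bet-null, 1.62 and 2.75 in STAT6-null and 4.55 and 5.07 in double-null libraries. Its rise over WT was 2.48 ± 0.15 (adjusted p = 1.6e-06), again with no overlap between T-bet-null and any other library. The genes of this class were sorted by these same values, so such gaps, here and below, describe them and are no further support.

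Il4 and Il13, which drive IgE switching and mucus and barrier responses, rose in every mutant and most in this one. Il4 stood at 183 and 117 FPKM in WT, 2078.5 and 2048.5 in T-bet-null, 1238 and 1275 in STAT6-null and 747 and 711 in double-null libraries. It lay 3.81 ± 0.16 above WT (adjusted p = 2.97e-07), 0.72 above STAT6-null and 1.5 above double-null cells. Il4 was no longer called apart when either T-bet-null or either STAT6-null library was left out. Il13 read 271 and 248 FPKM in WT, 1556 and 1522 in T-bet-null, 865 and 775 in STAT6-null and 619 and 526 in double-null libraries. The T-bet-null pair was again highest, 2.57 ± 0.09 over WT (adjusted p = 1.71e-07), 0.91 over STAT6-null and 1.43 over double-null cells.

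**Figure D1:**
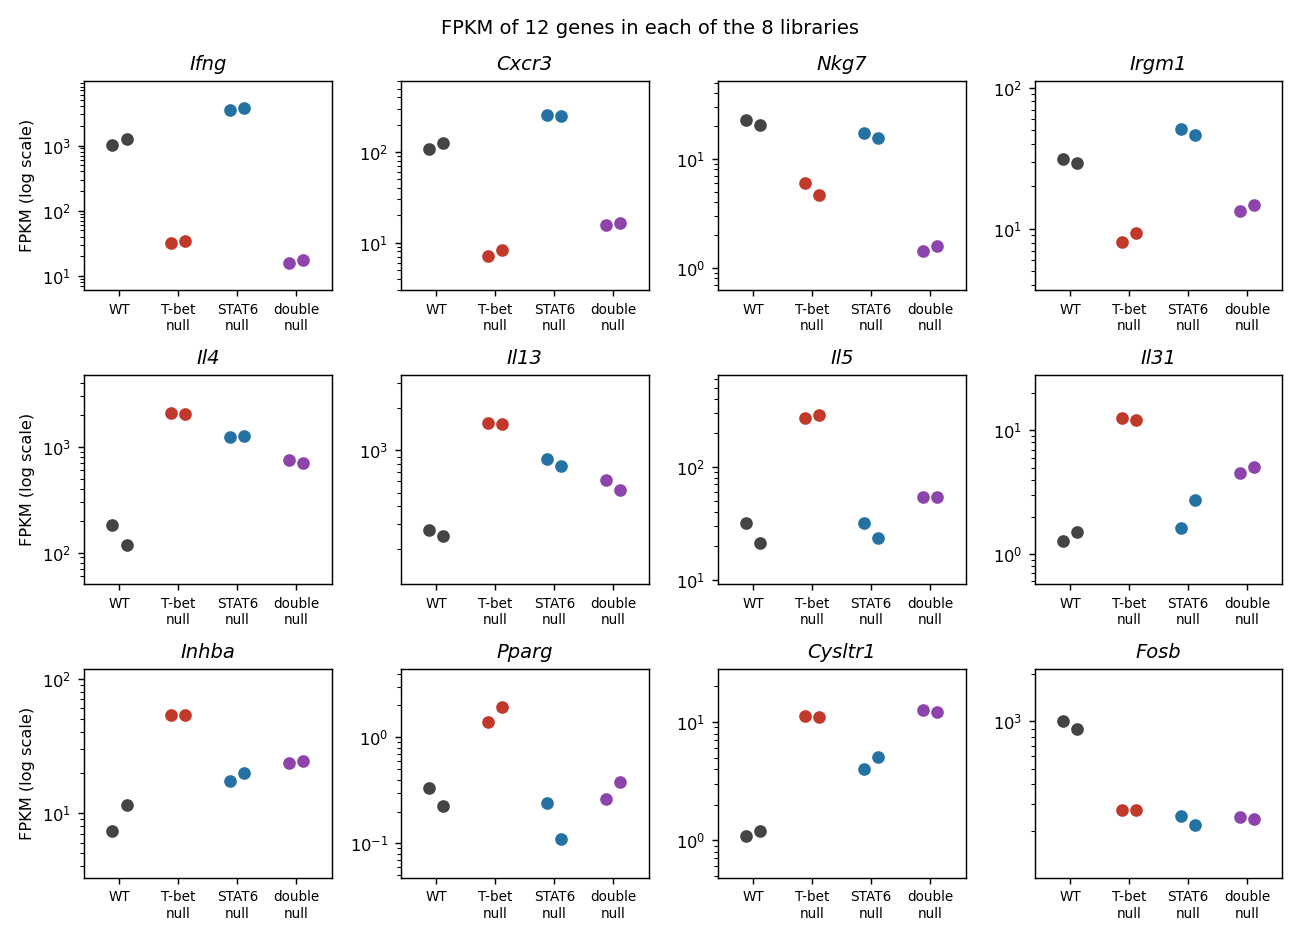
FPKM of 12 genes on a log axis in each of the 8 libraries, with the genotypes along the x axis; each point is 1 library. Il5 stands at 272 and 286 FPKM in the T-bet-null libraries and at no more than 54.6 in the other 6.

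Beyond the cytokines, the genes highest in T-bet-null cells included a secreted activin subunit, receptors and Th2 factors. Inhba, which encodes the activin A subunit, was 7.28 and 11.4 FPKM in WT, 53.7 and 53.4 in T-bet-null, 17.3 and 20.0 in STAT6-null and 23.7 and 24.2 in double-null libraries (2.43 ± 0.15 over WT, adjusted p = 2.26e-06). Cd160, an immunoglobulin-family receptor that binds HVEM, was 4.44 and 5.57, 28.0 and 27.2, 18.5 and 16.4, and 6.76 and 6.43 FPKM across the genotypes in that order (2.26 ± 0.09 over WT). Olr1, the scavenger receptor LOX-1, rose by 2.28 over WT and stood 0.95 and 0.82 above STAT6-null and double-null cells. Each of these 3 genes had its highest values in the T-bet-null pair.

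Ccr4, a chemokine receptor of Th2 and skin-homing T cells, read 38.0 and 37.1 FPKM in WT, 95.4 and 94.0 in T-bet-null, 24.3 and 24.6 in STAT6-null and 46.6 and 52.1 in double-null libraries. It was 1.31 ± 0.06 above WT, 1.91 above STAT6-null and 0.93 above double-null cells. Gfi1, a repressor that supports Th2 cell growth, was 43.3 and 39.6, 77.2 and 78.1, 20.1 and 21.0, and 25.4 and 20.2 FPKM across the genotypes in that order. T-bet-null cells held the most Gfi1 (0.89 ± 0.09 over WT, adjusted p = 3.91e-05), and both genotypes without STAT6 held less than WT.

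Among the 10 genes of this class with the largest rises, the widest gap to both other mutants was that of AA465934, a long noncoding RNA (chromosome 11, 83291699-83294637). It read 2.92 and 2.89 FPKM in WT, 36.6 and 34.9 in T-bet-null, 2.86 and 2.41 in STAT6-null and 1.60 and 2.00 in double-null libraries. It was 3.23 ± 0.09 above WT (adjusted p = 9.45e-08), 3.34 above STAT6-null and 3.72 above double-null cells. It shares its span with AI450353 and Snord7, and without stated strandedness reads of overlapping genes cannot be told apart. At least 2-fold above all 3 other genotypes were 7 genes (0.0681%): Il5, AA465934, Il31, Inhba, Eml1, Sfi1 and Pparg, the last of which passed the filter through the T-bet-null libraries alone. With a pseudocount of 0.1 in place of 1 these were 11. Eml1 and Sfi1 fall outside the rule for named genes and were named after their values were seen.

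**Figure D2:**
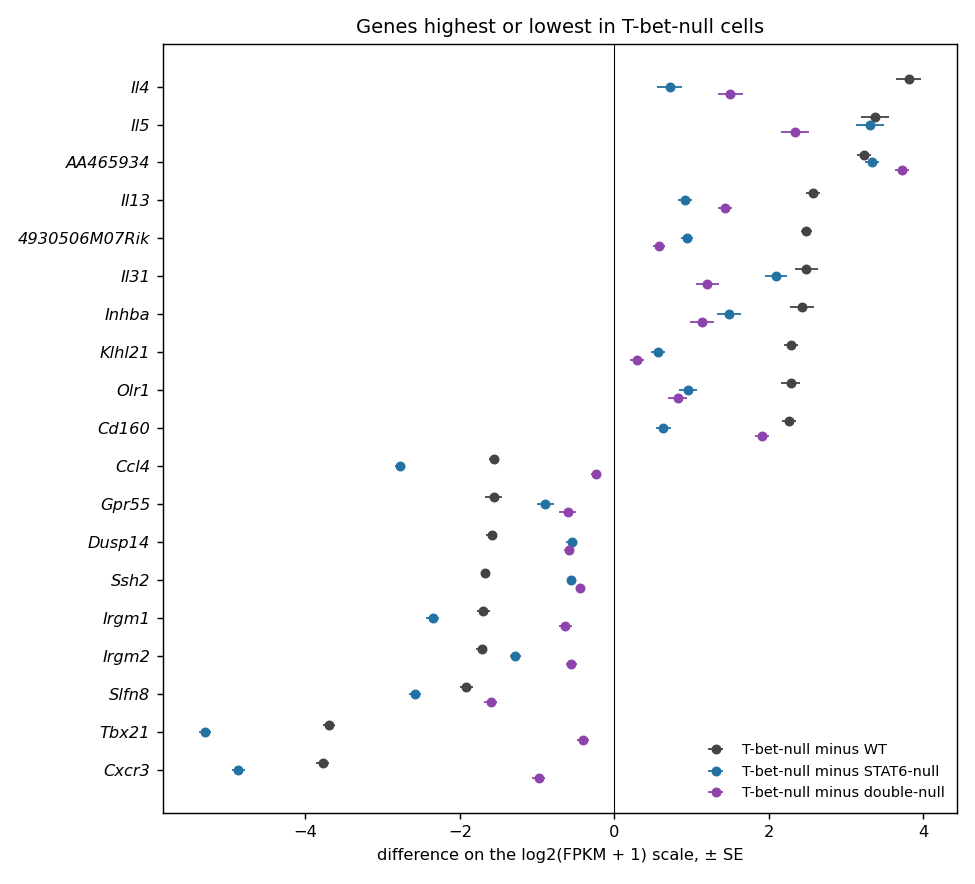
Differences of T-bet-null cells from WT, STAT6-null and double-null cells on the log2(FPKM + 1) scale for the genes highest or lowest in T-bet-null cells; bars are standard errors. Il5 and AA465934 lie more than 2 log2 units above every other genotype, and Slfn8 more than 1 below.

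Genes lowest in T-bet-null cells included several products of the interferon response. At least 2-fold below all 3 other genotypes were 6 genes (0.0584%), among them Slfn8, Lyz2, Rmrp, Il22 and Kit, the stem cell factor receptor, which was named after its values were seen. This count was 10 without double-null replicate 1 and 17 with the pseudocount of 0.1. Slfn8, a member of the Schlafen family, was 6.94 and 7.96 FPKM in WT, 1.24 and 1.23 in T-bet-null, 12.2 and 12.6 in STAT6-null and 5.47 and 6.11 in double-null libraries. Its fall was -1.91 ± 0.08 against WT (adjusted p = 2.91e-07), -2.58 against STAT6-null and -1.60 against double-null cells, with the T-bet-null pair below all others.

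The GTPases Irgm1 and Irgm2 act against microbes inside cells. Irgm1 stood at 31.5 and 29.3 FPKM in WT, 8.06 and 9.35 in T-bet-null, 50.9 and 46.1 in STAT6-null and 13.4 and 14.7 in double-null libraries (-1.70 ± 0.08 against WT). Irgm2 measured 31.2 and 28.1, 8.38 and 8.27, 22 and 21.3, and 12.1 and 13.3 FPKM across the genotypes in that order (-1.72 ± 0.07). Both were lowest in T-bet-null libraries, and double-null libraries came next. Irf1, a factor induced by IFN-γ, was 83.2 and 68.9 FPKM in WT, 31.6 and 30.7 in T-bet-null and 53.2 and 53.0 in double-null libraries (-1.25 ± 0.10 against WT).

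Other genes were lowest here without being interferon products. Ssh2, a phosphatase of the actin regulator cofilin, read 50.1 and 51.0 FPKM in WT, 14.8 and 15.6 in T-bet-null, and 20.7 to 23.0 in the other mutants (-1.67 ± 0.05 against WT). Dusp14, a phosphatase that damps T cell receptor signalling, read 239 and 226, then 80.3 and 73.1, and 110 to 122 FPKM across the genotypes in that order (-1.59 ± 0.07). Both also fell in the other mutants, and T-bet-null cells went further.

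The 203 genes apart from all others and called in neither other mutant against WT had smaller changes. Their median differences were 0.37 among the 118 higher and -0.43 among the 85 lower genes. A gene not called in the other mutants is not shown to be unchanged there. Pparg, a lipid-sensing factor that Th2 cells use (chromosome 6, 115360879-115490404), was 0.332 and 0.227 FPKM in WT, 1.41 and 1.93 in T-bet-null, 0.243 and 0.110 in STAT6-null and 0.265 and 0.378 in double-null libraries. The T-bet-null pair lay above the other 6 libraries, by 1.05 over WT. Mir17hg, the host transcript of the miR-17-92 cluster, was 44.7 and 37.0 FPKM in WT, 69.8 and 73.1 in T-bet-null and 40.2 to 49.5 in the other mutants (0.80 ± 0.11, adjusted p = 0.000203). Scx, a tendon transcription factor, stood at 0.696 and 0.312 FPKM in WT and 2.17 and 1.83 in T-bet-null libraries, and Actbl2, an actin-like gene, at 0.359 and 0.477 and at 1.48 and 1.81. Pparg, Scx and Actbl2 reached 1 FPKM in the T-bet-null pair alone, so they were tested only because they are high there, and their values are given as a description. This held for 20 of the 10281 genes, of which 11 count among the genes highest in T-bet-null cells and 7 among those seen to rise only there (353 and 111 without them).

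Among the genes that fell only here was Sdc4, a heparan sulfate proteoglycan of the cell surface. It read 6.62 and 6.90 FPKM in WT, 2.52 and 2.64 in T-bet-null, 8.21 and 6.77 in STAT6-null and 5.71 and 6.5 in double-null libraries (-1.12 ± 0.09, adjusted p = 1e-05). Hopx, a homeodomain cofactor found in Th1 effector cells, read 3.41 and 4.06, 1.40 and 1.25, 3.22 and 3.05, and 3.02 and 3.63 FPKM across the genotypes in that order (-1.02 ± 0.10). The T-bet-null pair was lowest for both.

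Lyz2, the lysozyme gene of macrophages, also fell only here, from 12.2 and 7.85 FPKM in WT to 2.49 and 3.59 in T-bet-null libraries, with 6.52 to 13.6 in the other mutants (-1.44 ± 0.22, adjusted p = 0.000381). It belongs to the myeloid markers, of which 0 rose and 4 of the 6 tested fell (34.2% and 36.3% of all tested genes). Their sums were 143 to 145 FPKM in STAT6-null and 113 to 137 in double-null libraries, against the 102 to 107 given above for T-bet-null libraries. The part of myeloid RNA in these falls was not tested. Without WT replicate 1, neither Lyz2 nor Scx counted as seen only in T-bet-null cells. Rmrp, the RNA of the mitochondrial RNA processing ribonuclease, fell by 1.23 ± 0.39 (adjusted p = 0.019), and it was not called once WT replicate 2 (-0.99, adjusted p = 0.115) or T-bet-null replicate 1 (-1.04, adjusted p = 0.092) was left out.

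The double-null and STAT6-null libraries measure T-bet loss a second time, in cells without STAT6 and with no library in common. There, 1157 genes were higher (11.3%) and 887 lower (8.63%) without T-bet. Of the genes called in T-bet-null against WT, 617 rose (6.0% of those tested) and 519 fell (5.05%) on both backgrounds, 15.7% of the calls. The count of 1136 fell to 477 without STAT6-null replicate 1, 591 without replicate 2 and 743 without double-null replicate 2. Among the 420 genes at least 2-fold lower with STAT6, 110 were also lower without it (26.2%) and 27 higher (6.43%). Among the 436 at least 2-fold higher, 185 were also higher (42.4%) and 28 lower (6.42%). Across the 10281 genes, which are not independent replicates, the 2 sets of differences had a Pearson r of 0.255 and a Spearman rho of 0.238, given as a description.

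At least 2-fold on both backgrounds were 7 genes higher (0.0681%) and 31 lower (0.302%), and Ifng headed the falls. Its level was 1029 and 1250.4 FPKM in WT, 32.4 and 33.9 in T-bet-null, 3516 and 3704 in STAT6-null and 16 and 17.8 in double-null libraries. The fall was -5.06 ± 0.09 with STAT6 (adjusted p = 2.11e-08) and -7.66 without it (adjusted p = 5.57e-10), and T-bet-null cells held 0.93 more than double-null cells. Cxcr3, the receptor that guides Th1 cells to inflamed tissue, read 109 and 127, 7.13 and 8.24, 254 and 251, and 15.7 and 16.4 FPKM across the genotypes in that order. It fell by 3.77 with and 3.89 without STAT6, and its T-bet-null level differed from the double-null level by -0.98. The interaction, the effect without STAT6 minus that with it, was -0.12 (adjusted p = 0.417). Nkg7, a membrane protein of cytotoxic granules, read 22.5 and 20.5, 6.05 and 4.65, 17.2 and 15.6, and 1.43 and 1.57 FPKM (-1.83 with and -2.80 without STAT6).

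The sequences before the start sites of these 3 genes are shown because T-bet is known to act at such genes, with that of Il5, which was much higher in T-bet-null cells than in all others, beside them. They are the 250 bases before each start in the RefSeq promoter table of build GRCm38.p6, 5′ to 3′ on the gene's own strand: Ifng at chr10:118440796-118441045 (+), Cxcr3 at chrX:101734148-101734397 (-), Nkg7 at chr7:43436888-43437137 (+) and Il5 at chr11:53720544-53720793 (+). Capitals mark the T-box core letters GTGTGA on either strand.
Ifng: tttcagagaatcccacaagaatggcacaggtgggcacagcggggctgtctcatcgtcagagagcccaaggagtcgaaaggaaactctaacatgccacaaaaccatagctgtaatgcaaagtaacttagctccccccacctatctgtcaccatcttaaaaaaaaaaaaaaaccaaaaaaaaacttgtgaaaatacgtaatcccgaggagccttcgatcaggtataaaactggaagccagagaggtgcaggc
Cxcr3: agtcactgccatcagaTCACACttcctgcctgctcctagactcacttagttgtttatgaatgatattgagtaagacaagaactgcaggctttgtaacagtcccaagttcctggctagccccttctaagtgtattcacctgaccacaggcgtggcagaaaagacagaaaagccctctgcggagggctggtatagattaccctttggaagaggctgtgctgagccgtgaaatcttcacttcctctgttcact
Nkg7: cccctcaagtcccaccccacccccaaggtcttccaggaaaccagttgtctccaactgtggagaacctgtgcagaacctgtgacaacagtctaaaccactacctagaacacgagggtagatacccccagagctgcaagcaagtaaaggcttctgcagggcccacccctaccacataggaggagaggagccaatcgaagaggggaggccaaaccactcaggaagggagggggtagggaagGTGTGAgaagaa
Il5: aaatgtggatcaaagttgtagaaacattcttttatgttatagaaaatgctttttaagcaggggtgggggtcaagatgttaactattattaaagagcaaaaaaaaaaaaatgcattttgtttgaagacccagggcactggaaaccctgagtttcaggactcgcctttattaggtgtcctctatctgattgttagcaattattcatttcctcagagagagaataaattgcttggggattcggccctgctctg

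In Cxcr3 the T-box letters occurred once on the opposite strand, 234 bases before the start, and in Nkg7 once, 12 bases before it. The Ifng window held none, and the Il5 window held no copy of the GATA letters AGATAA. Windows of 250 bases before to 50 after a start held GTGTGA in 14.5% of all 32851 windows of the table and in 10.9% of those of tested genes. For genes lower on both backgrounds the share was 13.1%, and for those lowest in T-bet-null cells 8.65%. AGATAA was in 11.2% of all windows, 6.52% of those of tested genes and 6.53% of those of genes highest in T-bet-null cells. Only these exact letters were sought, so variant forms of either motif were not counted. A match describes letters and is not a site of binding, and a window without a match is not shown to lack one.

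Chemokines of Th1 cells fell on both backgrounds. Ccl4, which draws inflammatory cells, read 209 and 203 FPKM in WT, 72.7 and 66.5 in T-bet-null, 503 and 460 in STAT6-null and 81.9 and 82.3 in double-null libraries (-1.55 with and -2.54 without STAT6). Ccl3, a closely related chemokine, read 75.7 and 71.1, 25 and 26.9, 226 and 190, and 12.4 and 13.2 FPKM (-1.46 and -3.92). The annotated spans of Ccl3 and Ccl4 overlap, so their values may share fragments. Ly6a, a surface protein raised by interferon, fell from 12.7 and 14.2 to 2.63 and 2.45 FPKM (-2.03 with and -3.15 without STAT6).

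Among the genes higher on both backgrounds were mediators of type 2 and type 17 responses. Cysltr1, a receptor for leukotrienes, read 1.09 and 1.19 FPKM in WT, 11.3 and 11.1 in T-bet-null, 3.97 and 5.06 in STAT6-null and 12.5 and 12.3 in double-null libraries (2.52 with and 1.29 without STAT6). The T-bet-null and double-null pairs lay close together, with a difference of -0.13. Il9 read 0.130 and 0.498, 6.97 and 8.76, 4.54 and 4.62, and 15.9 and 16.2 FPKM (2.76 and 1.61). Il17a, which draws neutrophils, read 270 and 243, 617 and 586, 500 and 581, and 2374 and 2620.5 FPKM (1.23 and 2.21). Its T-bet-null level differed from the double-null level by -2.05. Hbegf, a growth factor for epithelium, rose by 1.95 with and 0.75 without STAT6.

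**Figure D3:**
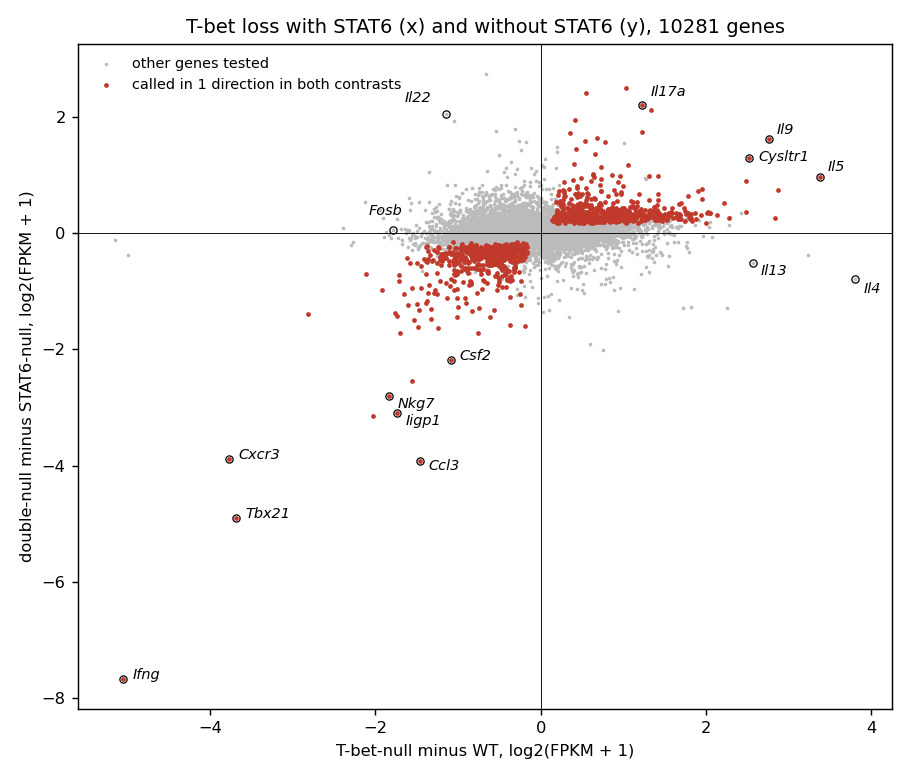
Difference with T-bet loss when STAT6 is present (x axis, T-bet-null minus WT) and absent (y axis, double-null minus STAT6-null), log2(FPKM + 1), 1 point per tested gene; red points were called in 1 direction in both. Ifng and Cxcr3 lie far down on both axes, and Il4 lies high on the x axis (3.81) and below 0 on the y axis (-0.79).

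For 496 genes, T-bet loss was called in opposite directions on the STAT6 backgrounds, 178 higher (1.73%) and 318 lower (3.09%) with STAT6. The effect on Il4 was 3.81 with STAT6 and -0.79 without it (adjusted p = 0.0112), and that on Il13 was 2.57 and -0.52 (adjusted p = 0.00533). The level of both stayed above WT in STAT6-null and double-null cells, as the values above show. Il22, which acts on skin epithelium, was the reverse, at 21.3 and 24.1 FPKM in WT, 9.64 and 9.73 in T-bet-null, 32.6 and 33.8 in STAT6-null and 123 and 162 in double-null libraries. It fell by 1.15 ± 0.11 with STAT6 (adjusted p = 2.64e-05) and rose by 2.05 without it (adjusted p = 1.09e-05). Over all genes, the interaction was called for 5889 genes (57.3%), a comparison that uses all 8 libraries, WT included.

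Among the genes that fell in all 3 mutants were Fosb and Mxd4, which T-bet loss did not change by the test in cells without STAT6. Fosb, a factor of the AP-1 family, read 1002 and 888 FPKM in WT, 274 and 273 in T-bet-null, 250.3 and 219 in STAT6-null and 247 and 239 in double-null libraries. It fell by 1.78 ± 0.08 in T-bet-null cells, and differed by 0.05 between double-null and STAT6-null cells (adjusted p = 0.68). Mxd4, an antagonist of MYC, read 46.6 and 50.9, 9.07 and 7.84, 7.32 and 5.84, and 6.70 and 7.38 FPKM (-2.40 against WT, 0.09 between double-null and STAT6-null, adjusted p = 0.59). For both, the WT pair stood alone and the 6 mutant libraries lay together.

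RNA of other cells and that of Y-linked genes also differed between WT and the mutants. The haemoglobin gene Hba-a1 was 229.6 and 109 FPKM in WT and 1.38 to 3.62 in all 6 mutant libraries, and Beta-s 212 and 114 against 0.896 to 4.02. Both tested erythroid genes fell, as did 36.3% of all tested genes (sums of 224 to 442 FPKM in WT and 7.36 to 7.48 in T-bet-null cells). Glycam1, a gene of the high endothelial venules of lymph nodes, was 8.91 and 5.22 FPKM in WT and 0.532 to 1.01 in the mutants (-2.27 ± 0.18). All 4 tested Y-linked genes, which do not mark a cell type, fell in T-bet-null cells (36.3% of all tested genes). Their sums were 104 to 110.0 FPKM in WT, 33.7 to 34.1 in T-bet-null, 37.3 to 43.2 in STAT6-null and 29.5 to 67.9 in double-null libraries. Xist was not analysed here, and the sex of the mice is not given in the labels. The part of these differences in the shared changes was not tested, and what sets the WT mice apart cannot be told apart from the mutations in a comparison with WT.

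Gene lists were read next by role, each beside the share of all tested genes called in the same comparison (34.2% higher and 36.3% lower for T-bet-null against WT, 11.3% and 8.63% for double-null against STAT6-null) and their medians of -0.02 and 0.01. The lists were not tested as sets.

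Th1 cytokines and chemokines gave 2 higher and 10 lower of 12, median -1.05, and 2 higher and 8 lower without STAT6, median -0.66. Il2, the T cell growth factor (0.72), and Tnfsf11, which encodes RANKL (0.79), were the 2 that rose, and Xcl1, a chemokine for cross-presenting dendritic cells, fell by 1.24. Th1 receptors went both ways, with 5 higher and 4 lower of 10, median -0.05. Ifngr1, the ligand-binding chain of the IFN-γ receptor, fell from 62.4 and 50.5 to 18.9 and 19.0 (-1.52), as it did in the other mutants (17.6 to 22). Th1 transcription factors gave 3 higher and 5 lower of 10, median -0.28. All 10 were lower in T-bet-null than in STAT6-null cells (12.3% of all genes were lower and 14.9% higher). Against double-null cells 9 were lower (16.4% of all genes were lower and 16.2% higher). Tbx21, the targeted gene itself, is counted among the lower genes each time. Zeb2, a zinc-finger repressor used by terminal effector cells, was an exception against WT, at 0.535 and 0.603 in WT and 5.27 and 5.44 FPKM in T-bet-null libraries (2.02 ± 0.08).

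Th2 cytokines gave 8 higher and 0 lower of 9, median 2.48. Without STAT6, 4 rose and 5 fell with T-bet loss, median -0.40. Il3, a growth factor of mast cells and basophils, changed by 1.82 with STAT6 and by -1.28 without it, and 4 of the 9 were highest in T-bet-null cells (3.54% of all tested genes). Th2 receptors gave 6 higher and 2 lower of 10, median 0.55, and Il17rb, the IL-25 receptor, was 1 of the 2 that fell (5.08 and 4.10 to 1.44 and 1.94 FPKM, -1.06). Th2 transcription factors gave 7 higher and 3 lower of 14, median 0.30. Gata3 rose by 0.88 over WT and stood 1.19 above STAT6-null and 0.87 above double-null cells, and Junb, an AP-1 factor, fell by 0.97.

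Th17 genes gave 10 higher and 2 lower of 13, median 0.66, and 11 higher and 2 lower without STAT6, median 1.57. Of the 13, 10 rose on both backgrounds (6.0% of all tested genes), among them Ccr6, a receptor of Th17 cells (0.68 and 1.63), and Ccl20, the ligand of CCR6 (1.22 and 1.74). No Th17 gene was higher in T-bet-null than in double-null cells, and 11 were lower (16.2% higher and 16.4% lower of all tested genes). Interferon-induced genes gave 1 higher and 30 lower of 33, median -0.93, and 0 higher and 24 lower without STAT6, median -0.52. They fell on both backgrounds for 23 of the 33 (5.05% of all tested genes), with the guanylate-binding proteins Gbp6 (-1.77 and -1.37) and Gbp4 (-1.33 and -1.48) and the GTPase Iigp1 (-1.74 and -3.10) among them, and 7 were lowest in T-bet-null cells (2.75% of all). Ifih1, a sensor of viral RNA, was the 1 that rose (1.21), and it gave 0.04 without STAT6, which was not called.

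Cytotoxic and killer cell receptor genes gave 2 higher and 9 lower of 14, median -0.43, and 0 higher and 7 lower without STAT6, median -0.37. Ctsw, a protease of killer cells, fell from 31.3 and 24.6 to 8.40 and 7.92 FPKM (-1.65), and Crtam, an adhesion receptor of cytotoxic CD4 cells, rose by 0.88. Homing receptors gave 3 higher and 13 lower of 21, median -0.62, and 5 higher and 4 lower without STAT6. Ccr7, the receptor for entry into lymph nodes, fell from 143 and 122 to 50.2 and 45.6 FPKM (-1.44), and Ccr2, which answers inflammatory chemokines, rose from 15.8 and 17.7 to 42.0 and 44.1 (1.31). Itgae, the integrin of tissue-resident T cells, was lowest in T-bet-null cells, at 39.7 and 38.7 FPKM against 79.4 and 81.4 in WT (-1.02), a place it lost without T-bet-null replicate 2.

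Immediate early genes gave 1 higher and 24 lower of 26, median -0.51, while without STAT6 T-bet loss gave 3 higher and 7 lower, median -0.04. Of the 26, 17 fell in all 3 mutants, against 27.2% of all tested genes. Egr3, a factor of T cell activation, fell from 878 and 959.7 to 298 and 271 FPKM (-1.69, and 0.08 without STAT6), and Ier3, a survival gene, was the 1 that rose, from 6.54 and 6.29 to 22.4 and 22.6 (1.67, and 0.08 without STAT6).

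Coinhibitory and costimulatory receptors gave 7 higher and 7 lower of 15, median 0.10. Ctla4, which restrains costimulation, was lowest in T-bet-null cells, at 1786 and 1810 FPKM against 2749 and 2773 in WT, 3405 and 3476 in STAT6-null and 2512 and 2624 in double-null libraries (-0.62 ± 0.06). Regulatory T cell genes gave 3 higher and 3 lower of 11, median -0.08, and 6 lower and 0 higher without STAT6. Ikzf2, the factor Helios, was highest in T-bet-null cells (61.8 and 76.8 in WT, 103 and 106 in T-bet-null, 54.6 to 75.0 in the others, 0.59), and Ebi3, a cytokine subunit, fell by 1.54. Follicular helper genes gave 3 higher and 4 lower of 8, median -0.29, with Bcl6, their main factor, at 32.7 and 34.1 FPKM in WT and 14.7 and 14.1 in T-bet-null cells (-1.16).

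**Figure D4:**
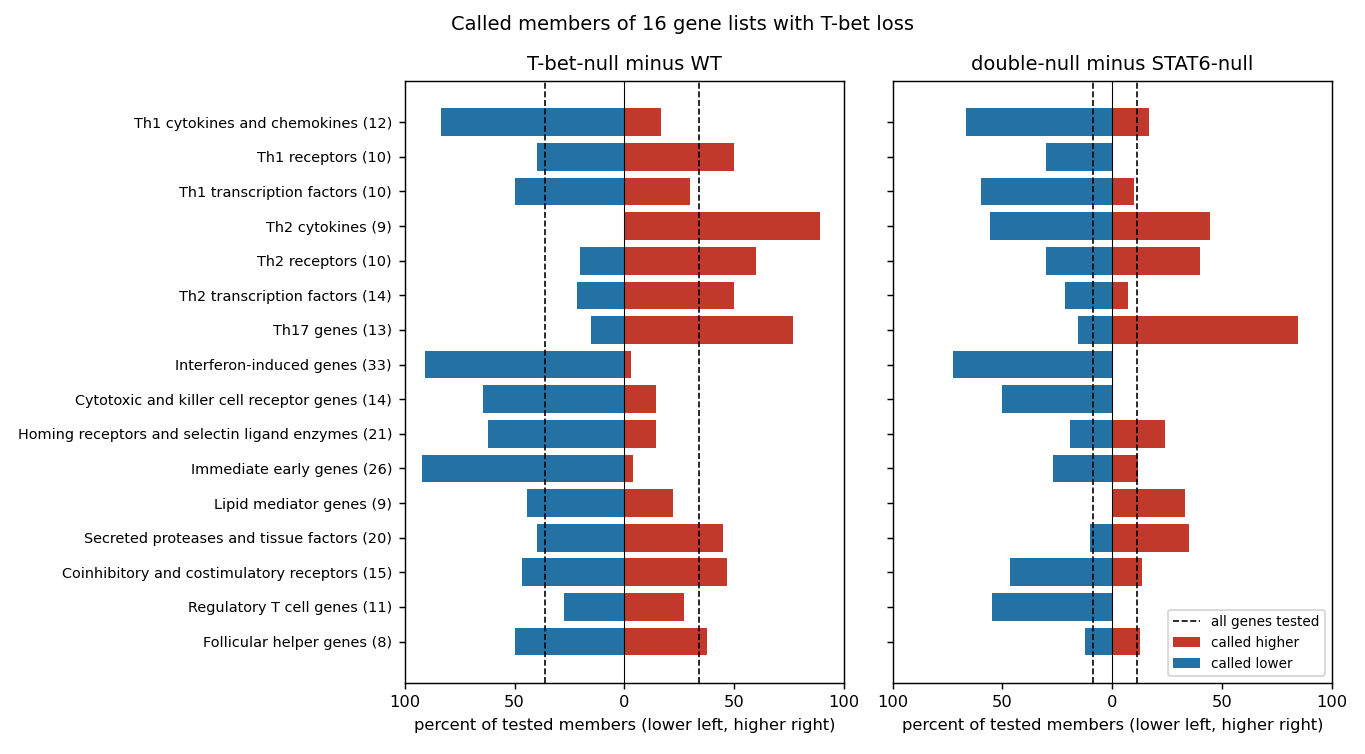
Percent of the tested members of 16 gene lists called higher (right) or lower (left) with T-bet loss, with STAT6 present and with STAT6 absent; dashed lines are the shares of all tested genes. Th2 cytokines show 8 of 9 members higher with STAT6 and 4 higher and 5 lower without it, and interferon-induced genes show 30 and 24 of 33 lower.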

How the data were processed

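RNA was measured in 8 libraries, 2 for each of 4 genotypes, grouped by the genotype in their titles. The authors deposited FPKM values for all libraries in 1 table. Per the submitters' processing notes, Cufflinks and mm10 were used, and RefSeq is the annotation in the table's own name. Not given in the sources used here: aligner, version of Cufflinks and strandedness. Where 1 symbol had several lines (43 symbols), the line with the highest mean was kept, which left 11841 symbols. Depth is not given, and the relative depth came from the steps of values under 0.5 FPKM.

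Values were tested as log2(FPKM + 1) with limma 3.58.1 in R 4.3.3, for genes with at least 1 FPKM in at least 2 libraries. The fit held all 8 libraries, with 1 mean for each genotype, empirical Bayes moderation with an intensity trend and 4 residual degrees of freedom. Tests were two-sided and adjusted by the Benjamini-Hochberg method over all tested genes within each comparison, with calls at an adjusted p under 0.05. The procedure was tested on simulated data in which some genes changed in T-bet-null libraries alone and all others kept the same mean. That setting does not cover the shared changes or a WT pair that stands apart. Python 3.11.15 with pandas 2.3.3 made the summaries.

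Named genes were Stat6 and 6 markers (Ifng, Cxcr3, Tbx21, Il4, Il5, Il13), those with the largest change against WT in each direction (10 among genes apart from all others, 6 among those seen only here, 6 among those shared, 8 among those changed on both backgrounds), up to 4 per gene list, and list members given as examples by role. The 17 symbols turned into dates by spreadsheet software are not named. Results for some genes are not reported here, though counts over classes and lists include them. The comparison, the lists and the tests were chosen with earlier results of these data known. Gene spans come from RefSeq on GRCm38, the assembly behind mm10, and 10575 symbols matched by name and 1164 through an older name. The highest of the genes just outside the filter was Pcx, with a second-highest value of 0.999 FPKM, and the lowest just inside was Stil, with 1.001. Pseudocount, filter, scaling, variance model, replicate block, libraries left out and a fit on the 4 libraries alone were tried as alternatives.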

Additional observations from a re-analysis of the deposited data

Results flagged for a closer look

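The effect of T-bet loss differed between cells with and without STAT6 for 55 of the 92 named genes. Each had an interaction of at least 1 on the log2 scale, in either direction, at an adjusted p of 0.0251 or less (limma). Of all tested genes, 852 passed the same limits (8.29%). Most named genes were chosen for a large difference from WT, which is itself a term of the interaction, so the share among them is not read as a result. The value beside each gene is the effect without STAT6 minus the effect with it. It was positive for 25 and negative for 30 genes. Every such value uses the WT libraries, which stood apart from the 6 mutant libraries.

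Among cytokines and chemokines, the values were Ifng (-2.60), Il4 (-4.59), Il13 (-3.09), Il5 (-2.41), Il31 (-1.59), Il9 (-1.15) and Ccl3 (-2.45), and Il22 (3.20) went the other way. For Il4 and Il13 T-bet loss raised the gene with STAT6 and lowered it without. Secreted and tissue genes were Inhba (-2.08), Mmp13 (-2.13), Hbegf (-1.20), Timp1 (-1.44) and Sema7a (-3.01), with Ebi3 (1.54) and Glycam1 (2.11) on the positive side.

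Receptors and surface genes were Cd160 (-3.54), Olr1 (-2.15), Cysltr1 (-1.23), Ccr3 (-1.62), Ccr2 (-1.60) and Ly6a (-1.12), with Ifngr1 (1.31), Il17rb (1.47), Gpr55 (1.27), Itgb7 (1.10) and Ptger1 (1.25) positive. Transcription factors were Tbx21 (-1.20), Zeb2 (-1.67), Stat5a (-1.08) and Ikzf4 (-1.12), with Bcl6 (1.33), Tox2 (1.11), Hopx (1.09) and Mxd4 (2.49) positive. The activation genes Fosb (1.84), Egr3 (1.77) and Klf4 (1.63) were positive and Ier3 (-1.58) was negative.

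The haemoglobin genes Hba-a1 (5.03) and Beta-s (4.61) had the widest positive values. The other genes were AA465934 (-3.61), 4930506M07Rik (-2.12), Klhl21 (-2.02), Scpep1 (-1.15), Ncs1 (-2.58), Polr1b (-2.02) and Iigp1 (-1.36), and, positive, Ssh2 (1.55), Dusp14 (1.62), Rmrp (1.72), Lars2 (1.13), Arl5c (1.42), Arl13b (2.09), Cyp4f18 (1.41) and Ptgs2 (1.52).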

How the results depend on the processing

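The named genes kept their direction, and 91 of 92 their side of the threshold against WT, under all 16 alternatives that could test them; the exception was Rmrp, given above. With a pseudocount of 0.1 in place of 1, which widens low values, the counts of at least 2-fold changes were larger. T-bet-null against WT then gave 1473 genes (823 lower), genes apart from all others 28 (11 higher, 17 lower), shared genes 974 (432 higher, 542 lower) and genes changed on both backgrounds 71 (21 higher, 50 lower).

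Leaving out each library in turn gave ranges of 6148 to 7437 genes called against WT, 264 to 682 apart from all others (141 to 364 higher, 123 to 336 lower), 96 to 228 seen only in T-bet-null cells (55 to 130 higher, 41 to 98 lower), 4875 to 5600 shared, 477 to 1109 on both backgrounds (242 to 629 higher, 235 to 480 lower) and 4992 to 5749 for the interaction. At least 2-fold below all others were 5 to 10 genes. Where 1 library of a genotype was left, it was assumed to vary like the others. Of the named genes, 31 of 38 kept their place apart from all others under every alternative, 6 of 11 that of being seen only here, 56 of 62 that of being shared and 29 of 37 that on both backgrounds. Quantile normalization left 117 of the 203 genes seen only here in that class. Fewer of them stayed when either T-bet-null or either STAT6-null library was left out.

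Deviations of libraries with the same replicate number in their titles correlated at -0.09 to 0.09. These low values gave little sign of a pairing by number but do not exclude one. With the replicate block, 7151 genes were called against WT, 590 apart from all others, 186 only in T-bet-null cells, 5488 shared and 1043 on both backgrounds. Depth could be read only relative to WT replicate 1, so no counting interval is given, and 2 libraries per genotype limit the precision.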

Other observations

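Of the 19 genes set apart in T-bet-null cells that are named here for their large changes, 11 lie on chromosome 11, 4 higher and 7 lower, and Tbx21 itself is among them. Over all tested genes of chromosome 11, 75 of 855 were in the class (8.77%), against 639 of the 10199 placed genes (6.27%). The shares of chromosomes 3 (7.89%), 19 (7.87%) and 13 (7.81%) were close to it. Il4, Il5 and Il13 lie together between 53612460 and 53725103 on that chromosome. Irf1, a member of the class but not of the 19, lies beside them and ends at 53778374. Slfn8, AA465934, Ccl4 and Dusp14 lie between 83002125 and 84069256. The others are Irgm1 (from 48865245), Irgm2 (from 58214977), Ssh2 (from 77216157) and Tbx21 (from 97098007). These numbers were read after the class was formed and were not tested.

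Genes for lipid mediators gave 2 higher and 4 lower of 9 in T-bet-null cells against WT, median -0.13, and 3 higher and 0 lower without STAT6. Of all tested genes, 34.2% were higher and 36.3% lower against WT, and 11.3% and 8.63% without STAT6. Ptger1, a prostaglandin E2 receptor, stood at 12.4 and 11.9 FPKM in WT, 3.85 and 3.93 in T-bet-null and 3.71 to 4.36 in the other mutant libraries. Ptgs2, the inducible enzyme of prostaglandin synthesis, stood at 3.75 and 4.70 FPKM in WT and 1.05 and 1.11 in T-bet-null libraries. Secreted proteases and tissue factors gave 9 higher and 8 lower of 20, median 0.10, and 7 higher and 2 lower without STAT6, beside the same shares of all tested genes. Mmp13, a collagenase, read 2.37 and 2.04 FPKM in WT, 22.2 and 22.7 in T-bet-null, 36.4 and 39.6 in STAT6-null and 65.5 and 63.2 in double-null libraries. Timp1, an inhibitor of such enzymes, read 0.443 and 1.16, 5.39 and 4.01, 14.9 and 20.0, and 17.4 and 24.5 FPKM across the genotypes in that order. For both, T-bet-null libraries lay between WT and the other mutants.

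Of markers for further cell types, Cd8b1 of CD8 T cells (-0.37) and Pecam1 of endothelium (-1.21) fell. Pecam1 was the only 1 tested of 5 stroma and endothelium markers. Of the 6 mast cell and basophil markers 2 were tested, and 1 of these fell. Keratinocyte markers, of which 3 of 6 were tested, gave 2 higher and 1 lower, beside 34.2% higher and 36.3% lower of all tested genes. Their summed levels were 11.4 to 11.7 FPKM in WT and 38.7 to 40.9 in T-bet-null libraries. In STAT6-null libraries these sums were 57.4 to 58.1 and in double-null libraries 48.8 to 55.0. Cd8a, Krt5 and Krt14 were not analysed here, and which cells the RNA of these markers came from was not tested.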
